A study of Mus musculus with 9 samples.

Results

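MAP kinase phosphatases are the dual-specificity phosphatases that take phosphate off both the threonine and the tyrosine of activated MAP kinases, and 9 of their genes were followed here in RAW264.7 cells: Dusp1, Dusp2, Dusp4, Dusp5, Dusp6, Dusp7, Dusp8, Dusp10 and Dusp16. They were chosen by gene symbol, and all 9 symbols are among the 23282 gene rows of the libraries, each on a row of its own. Dusp9, a further gene of the family, was not among the chosen genes and is described with the other phosphatases. Of the 9 genes, 6 met the filter on low values in every comparison and were tested. Dusp8 and Dusp10 lay below the filter on low values, and Dusp5 was listed at 0 in all 9 libraries.

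The RNA came from RAW264.7, a transformed macrophage line of BALB/c origin that can be driven towards osteoclasts by RANKL, a cytokine of the TNF family. There were 3 groups of 3 libraries. The negative control received RANKL alone (50 ng/mL). The surface protein-treated cells received RANKL together with 10 µg/mL of proteins taken from the surface of Propionibacterium freudenreichii MJ2, a dairy bacterium. The cells treated with heat-killed MJ2 were given 1e+07 bacterial cells/mL, and the labels do not state for these libraries one by one that RANKL was added too. Treatment lasted 4 days in every group, and all cells are given as passage 30. No library labelled as untreated is among those analysed here, so levels before differentiation cannot be read from them. The labels do not say that the libraries of a group are separate cultures, and p-values then measure the spread between these libraries, which may be technical.

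MAP kinases (ERK, JNK and p38) are switched on by phosphorylation downstream of RANK, the M-CSF receptor and Toll-like receptors, and the phosphatases switch them off again. The family falls into nuclear enzymes whose genes are early targets of the same pathways (Dusp1, Dusp2, Dusp4, Dusp5), cytoplasmic enzymes that act mainly on ERK (Dusp6, Dusp7), and enzymes that act mainly on JNK and p38 (Dusp8, Dusp10, Dusp16). In macrophages Dusp1, also called MKP-1, is best known as a brake on the p38 and JNK signals that drive inflammatory cytokine genes. RANKL signalling in osteoclast precursors uses each of these kinase branches, so the balance of these phosphatases is of interest in the line studied here.

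A value below is either the deposited log2 value or, where so called, adjusted reads, which is 2 raised to the deposited value, minus 1. The libraries read the 3′ end of each mRNA once, so values do not grow with transcript length, and levels of different genes were compared as adjusted reads or their log2 values. The total per library lay between 5930926 and 6503682 adjusted reads. Replicates were more alike (Pearson's r across genes 0.946 to 0.964) than libraries of different groups (0.823 to 0.921). The summed adjusted reads of 10 osteoclast markers were 20914 to 33120 in the negative control, 13868 to 16029 with heat-killed MJ2 and 5262 to 7864 with surface proteins, and against RANKL alone 7 of the 9 markers tested fell with surface proteins (7.32% of all genes tested fell) and 3 of 9 with heat-killed MJ2 (0.897%). Calcr, the calcitonin receptor of mature osteoclasts, reached at most 4.93 adjusted reads. The sums of 8 macrophage markers were 15719 to 17431, 22974 to 23689 and 18803 to 20334 in the same order of groups, and 5 of 8 rose and 1 fell with surface proteins (10.2% of all genes tested rose), while 4 of 8 rose with heat-killed MJ2 (3.37%). Markers of T cells and B cells reached at most 3.85 adjusted reads summed in any library, although the labels name the tissue as blood and lymph. The part of these marker shifts in the results on the phosphatases was not tested. In bulk RNA, fewer cells of a type and less RNA per cell cannot be told apart.

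Promoter windows of 8 of the 9 genes were matched in RefSeq (GRCm38.p6), which is the mm10 build named in the submitters' notes. Of these, 5 are shown because they carry the contrasts described below: Dusp1 and Dusp2, whose values went opposite ways, Dusp6, which rose under both treatments, and Dusp5 and Dusp8, which were listed at 0 or below the filter. Each window holds the 250 bases before the start, 5′ to 3′ on the strand of the gene, and capitals mark matches to the motifs searched. They lie at chr17:26508473-26508722 (minus strand, Dusp1), chr2:127335909-127336158 (plus strand, Dusp2), chr19:53528895-53529144 (plus strand, Dusp5), chr10:99262981-99263230 (plus strand, Dusp6) and chr7:142095285-142095534 (minus strand, Dusp8).
Dusp1: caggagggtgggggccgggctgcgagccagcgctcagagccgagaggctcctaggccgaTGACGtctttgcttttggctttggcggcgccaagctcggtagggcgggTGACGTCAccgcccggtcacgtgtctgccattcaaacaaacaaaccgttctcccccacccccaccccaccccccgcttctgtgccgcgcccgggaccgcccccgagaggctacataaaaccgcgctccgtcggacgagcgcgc
Dusp2: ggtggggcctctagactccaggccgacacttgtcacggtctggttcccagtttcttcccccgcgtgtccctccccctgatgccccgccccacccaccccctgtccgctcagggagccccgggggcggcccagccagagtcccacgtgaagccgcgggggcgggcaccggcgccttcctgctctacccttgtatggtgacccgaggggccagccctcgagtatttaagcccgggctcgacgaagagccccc
Dusp5: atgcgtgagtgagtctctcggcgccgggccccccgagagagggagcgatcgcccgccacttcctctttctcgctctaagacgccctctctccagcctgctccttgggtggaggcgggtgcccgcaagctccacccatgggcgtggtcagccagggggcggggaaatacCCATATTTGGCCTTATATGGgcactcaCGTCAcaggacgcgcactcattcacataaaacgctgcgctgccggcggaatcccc
Dusp6: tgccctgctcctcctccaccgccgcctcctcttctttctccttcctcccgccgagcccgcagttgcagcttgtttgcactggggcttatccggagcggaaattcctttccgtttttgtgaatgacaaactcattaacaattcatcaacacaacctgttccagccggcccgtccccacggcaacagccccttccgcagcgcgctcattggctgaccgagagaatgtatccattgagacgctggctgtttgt
Dusp8: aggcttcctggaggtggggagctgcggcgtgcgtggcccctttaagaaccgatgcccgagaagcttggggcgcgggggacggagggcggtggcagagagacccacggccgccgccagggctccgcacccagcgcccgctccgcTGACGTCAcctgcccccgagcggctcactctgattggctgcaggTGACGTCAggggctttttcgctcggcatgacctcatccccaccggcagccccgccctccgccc

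The motifs searched on both strands were the full cAMP response element TGACGTCA, its short form TGACG, the AP-1 site TGANTCA, the TATA box TATAAA, the STAT site TTCNNNGAA, the NF-kB site and the CArG box of SRF. Dusp1 holds TGACGTCA at 143 to 136 bases before the start, and Dusp8 holds it at 107 to 100 and again at 63 to 56. The same letters occur in 1.55% of the 32851 promoters in the table. The short form, which every full element also contains, occurs in 17.8% of them, and beyond the full elements it lies in Dusp1 at 191 to 187, in Dusp5 at 55 to 51 and in Dusp16 at 70 to 66. Dusp5 holds 2 CArG boxes side by side, at 82 to 73 and 72 to 63, a motif found in 1.47% of promoters. The other motifs, which occur in 6.75% (TGANTCA), 12.4% (TATAAA), 7.02% (TTCNNNGAA) and 7.25% (NF-kB) of promoters, had no match in these 8 windows. Dusp2 and Dusp6 hold none of the 7 motifs in this window. A match is a run of letters only, and whether these motifs have a part in the changes of level was not tested.

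**Figure D1:**
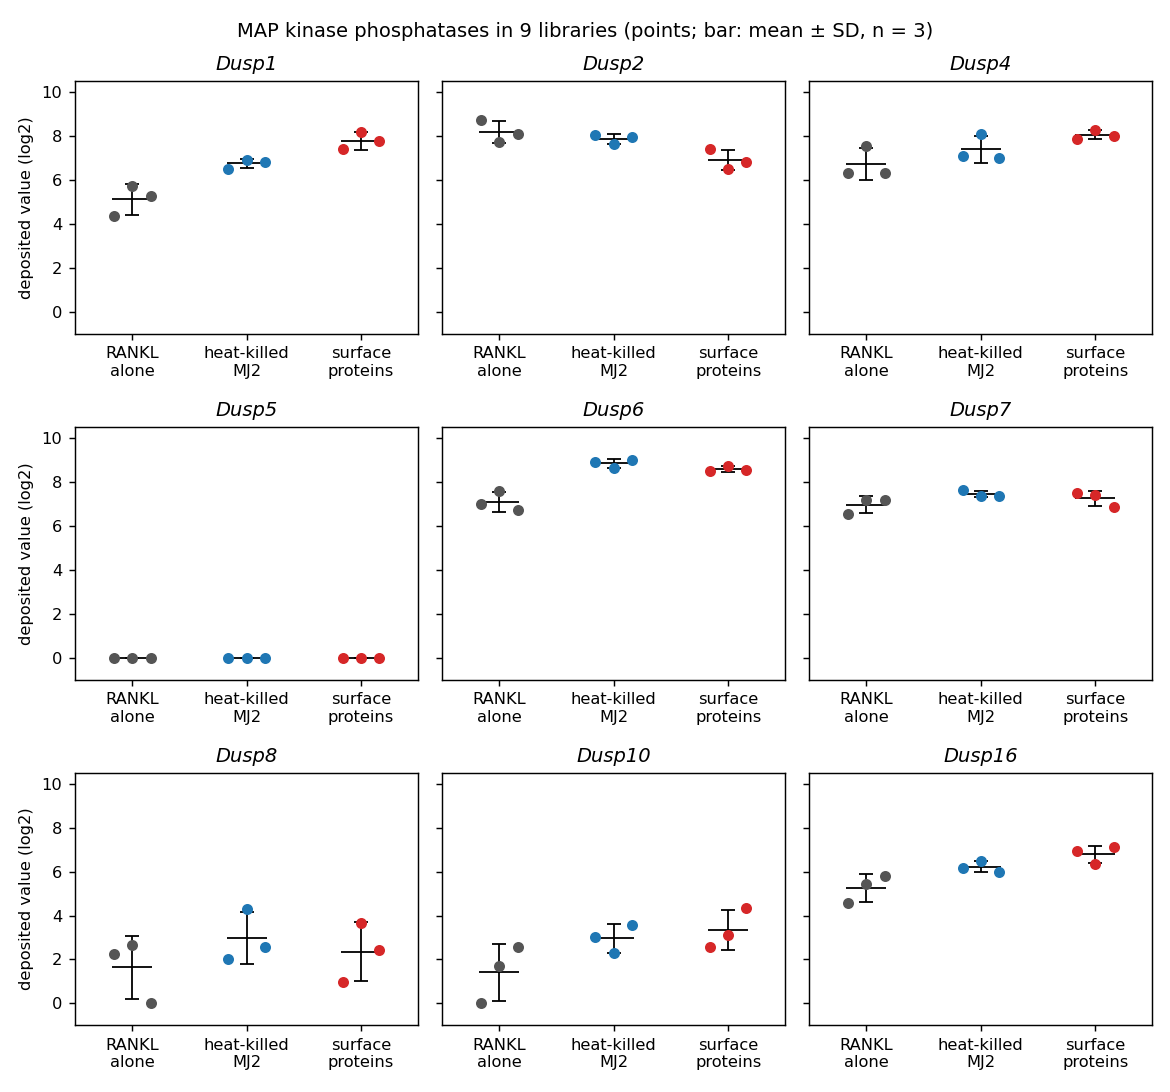
Deposited log2 value of each MAP kinase phosphatase gene (vertical axis) in the 9 libraries, by group (horizontal axis); points are libraries and bars are mean ± SD (n = 3). Dusp1 stepped up from RANKL alone (5.12) to heat-killed MJ2 (6.75) to surface proteins (7.78), Dusp2 was lowest with surface proteins (6.90), and Dusp5 lay at 0 throughout.

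The comparison of surface proteins with RANKL alone asks which genes respond when the bacterial proteins are added to cells that are being driven towards osteoclasts. Of the 6 phosphatase genes tested, 4 rose (Dusp1, Dusp4, Dusp6 and Dusp16), 1 fell (Dusp2) and Dusp7 did not pass. Passing required both a fold change of at least 2 and a limma adjusted p below 0.05, which 17.5% of the 10874 genes tested did in this comparison (10.2% higher and 7.32% lower). Of the 6 genes, the same 5 had libraries of the groups that did not overlap, which held for 48.4% of the genes tested. Passing and lack of overlap rest on the same values, so the latter is no separate support for the calls. The median log2 fold change of the 6 genes was 1.40, against -0.00767 over all genes tested. The comparison of heat-killed MJ2 with RANKL alone used the same control libraries. There 1 of the 6 genes passed, Dusp6, which rose, against 4.26% of the 10814 genes tested (3.37% in that direction). Of the 6 genes, 4 (Dusp1, Dusp6, Dusp7 and Dusp16) had every heat-killed MJ2 library above every control library, which held for 15.4% of all genes tested. Their median log2 fold change was 0.813, against -0.00417 over all genes tested.

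**Figure D2:**
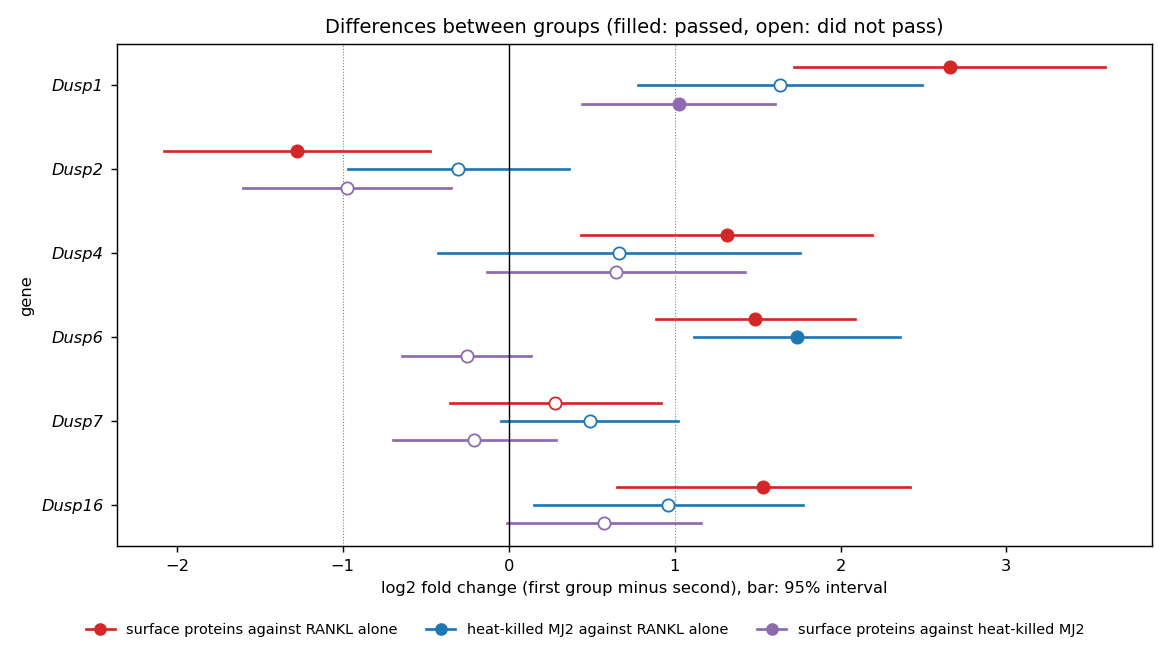
Log2 fold change (horizontal axis, first group minus second) of the 6 genes tested in the 3 comparisons, with 95% intervals from limma; filled points passed, open points did not, and dotted lines mark a fold change of 2. Dusp1 and Dusp6 lie clear of 0 with surface proteins, Dusp2 lies on the other side, and Dusp7 crosses 0 in every comparison.

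Dusp1 showed the greatest rise of the family with surface proteins against RANKL alone. It encodes the nuclear phosphatase MKP-1, which prefers p38 and JNK. In the negative control its log2 values were 4.36, 5.72 and 5.27, or 19.6, 51.9 and 37.6 adjusted reads. With heat-killed MJ2 they were 6.51, 6.93 and 6.82, or 90.1, 121 and 112 adjusted reads. With surface proteins they were 7.39, 8.19 and 7.75, or 166, 291 and 215 adjusted reads. The 3 groups did not overlap, and the order from low to high was RANKL alone, heat-killed MJ2, surface proteins. Against RANKL alone the log2 fold change with surface proteins was 2.66 (SE 0.39, 95% interval 1.72 to 3.60, adjusted p = 0.0051, limma), a 6.31-fold rise, and it passed under all 17 alternative settings. With heat-killed MJ2 it was 1.63 (SE 0.35, 95% interval 0.78 to 2.49) and did not pass (adjusted p = 0.052). Without the second library of RANKL alone that difference passed (log2 fold change 1.94, adjusted p = 0.046), and over the alternatives its adjusted p lay between 0.0041 and 0.15.

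Between the treatments, Dusp1 was higher with surface proteins than with heat-killed MJ2 by 1.02 on the log2 scale (SE 0.24, 95% interval 0.44 to 1.61, adjusted p = 0.035, limma), just past the fold limit. In that comparison 10.1% of the 10916 genes tested passed, and Dusp1 was the only 1 of the 6 phosphatase genes that did. It passed under 9 of 17 alternative settings. The call was lost without the first heat-killed MJ2 library (adjusted p = 0.11), the second (0.054) or the third (0.097), and without the second (0.082) or the third (0.088) surface protein library. It was also lost when all 9 libraries were fitted together (0.071), with no filter on low values (0.070), and with equal totals, where the log2 fold change of 0.94 was under the limit. Over the alternatives its adjusted p lay between 0.0035 and 0.11. No exact permutation of 3 against 3 libraries can give a p below 0.1, so no such test was used as a threshold.

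Dusp2 went the other way. Its product, PAC-1, is a nuclear phosphatase of immune cells that acts on ERK and p38. In adjusted reads it stood at 420.1, 212 and 269 with RANKL alone, the highest gene of the family in each of these 3 libraries. With heat-killed MJ2 it stood at 262, 196 and 248, and with surface proteins at 166, 89.2 and 112. Every surface protein library lay below every other library, while the libraries of RANKL alone and of heat-killed MJ2 overlapped. With surface proteins the log2 value fell by 1.28 against RANKL alone (SE 0.33, 95% interval -2.08 to -0.47, adjusted p = 0.033, limma), a level 2.42-fold lower. This call was lost with no filter on low values (adjusted p = 0.071) and when any of 4 libraries was left out: the first (adjusted p = 0.078) or the third (0.075) of RANKL alone, or the second (0.099) or the third (0.087) of surface proteins. Over the alternatives its adjusted p lay between 0.0018 and 0.099. The log2 difference of heat-killed MJ2 from RANKL alone was -0.30 (95% interval -0.97 to 0.37, adjusted p = 0.57).

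Against heat-killed MJ2, Dusp2 with surface proteins was lower by a log2 difference of -0.97 (SE 0.26, 95% interval -1.60 to -0.35, adjusted p = 0.049, limma). The p met its threshold, as it did for 17.9% of genes tested, but the difference was under the fold limit. Without the first surface protein library it passed both limits (log2 fold change -1.22, adjusted p = 0.028), and over the alternatives its adjusted p lay between 0.0052 and 0.14. Of the 6 phosphatase genes, Dusp1 and Dusp2 were the 2 whose surface protein and heat-killed MJ2 libraries did not overlap, which held for 42.3% of all genes tested.

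Dusp1 and Dusp2 thus changed places. The log2 value of Dusp1 minus that of Dusp2 in the same library was -4.36, -2.01 and -2.81 with RANKL alone. With heat-killed MJ2 it was -1.53, -0.70 and -1.14, and with surface proteins 0, 1.70 and 0.93. Dusp2 was the higher gene in each library of RANKL alone and of heat-killed MJ2, and in none of the surface protein libraries, of which the first lists the pair at the same value. This pair was picked after its values were seen, so the differences are given as a description.

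Dusp4 encodes MKP-2, a nuclear phosphatase closely related to Dusp1. Its adjusted reads were 79.6, 188 and 78.1 with RANKL alone, 136, 275 and 126 with heat-killed MJ2, and 232, 307 and 256 with surface proteins. The second library of each group was the highest of its group, and the heat-killed MJ2 libraries overlapped with both other groups. Only surface proteins and RANKL alone were separate. With surface proteins the log2 fold change against RANKL alone was 1.31 (SE 0.36, 95% interval 0.43 to 2.19, adjusted p = 0.039, limma), a 2.48-fold rise. It passed under 11 of 17 alternative settings, with adjusted p between 0.0030 and 0.12, and was lost with no filter on low values (adjusted p = 0.084), without the first (0.11) or the third (0.11) library of RANKL alone, and without the first (0.071), second (0.12) or the third (0.091) of surface proteins. The log2 difference of heat-killed MJ2 from RANKL alone was 0.66 (95% interval -0.43 to 1.75, adjusted p = 0.44), and that of surface proteins from heat-killed MJ2 was 0.65 (95% interval -0.13 to 1.43, adjusted p = 0.20). The latter passed when the second heat-killed MJ2 library was left out (log2 fold change 1.00, adjusted p = 0.028), and over the alternatives its adjusted p lay between 0.028 and 0.44.

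Dusp5, a nuclear phosphatase specific for ERK, was listed at 0 in all 9 libraries. If 1 adjusted read stands for 1 read, a count of 0 allows up to 3 in a library, and this limit covers counting error only. No fold change was computed for it. Its promoter window is the one with a pair of CArG boxes shown above.

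Dusp6, which encodes the cytoplasmic ERK phosphatase MKP-3 and is a feedback target of ERK itself, was the gene that rose under both treatments. Its adjusted reads were 126, 193 and 104 with RANKL alone, 483, 390.0 and 509 with heat-killed MJ2, and 363, 423 and 368 with surface proteins. All treated libraries lay above all control libraries, and the 2 treated groups overlapped. With surface proteins the log2 fold change was 1.49 (SE 0.25, 95% interval 0.89 to 2.09, adjusted p = 0.0081, limma), a 2.80-fold rise that passed under all 17 alternative settings. With heat-killed MJ2 it was 1.74 (SE 0.26, 95% interval 1.12 to 2.36, adjusted p = 0.019), a 3.34-fold rise. The latter passed under 12 of 17 alternative settings, and the settings that ended it included no filter on low values (adjusted p = 0.052) and leaving out the first library of RANKL alone (0.060), the first of heat-killed MJ2 (0.078) or the third of heat-killed MJ2 (0.074), and over the alternatives its adjusted p lay between 1.5e-05 and 0.078. Surface proteins differed from heat-killed MJ2 by -0.25 on the log2 scale (95% interval -0.64 to 0.13, adjusted p = 0.30).

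Dusp7, the other cytoplasmic ERK phosphatase tested, passed in none of the 3 comparisons. Its adjusted reads were 90.9, 145 and 144 with RANKL alone, 194, 164 and 165 with heat-killed MJ2, and 176, 168 and 115 with surface proteins. The surface protein libraries overlapped with both other groups, while those of heat-killed MJ2 all lay above those of RANKL alone. The log2 difference was 0.28 for surface proteins (95% interval -0.35 to 0.92, adjusted p = 0.46, limma) and 0.49 for heat-killed MJ2 (95% interval -0.04 to 1.02, adjusted p = 0.25) against RANKL alone. Between the treatments it was -0.21 (95% interval -0.70 to 0.28, adjusted p = 0.50). The intervals against RANKL alone leave room for rises near 2-fold, so the data do not show that Dusp7 was constant.

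Among Dusp8, Dusp10 and Dusp16, the group that acts mainly on JNK and p38, only Dusp16 was high enough to test. It encodes MKP-7, which shuttles between nucleus and cytoplasm and prefers JNK. Its adjusted reads were 22.4, 42.1 and 54.4 with RANKL alone, 71.6, 88.1 and 62.8 with heat-killed MJ2, and 120.4, 80.6 and 136 with surface proteins. The control libraries lay below all treated ones, and the treated groups overlapped through the second surface protein library. With surface proteins the log2 fold change was 1.53 (SE 0.37, 95% interval 0.65 to 2.42, adjusted p = 0.025, limma), a 2.90-fold rise. The call was lost with no filter on low values (adjusted p = 0.058), without the second library of RANKL alone (0.053) and without the first (0.066) or the third (0.075) of surface proteins, and over the alternatives its adjusted p lay between 0.0037 and 0.075. The log2 difference was 0.96 with heat-killed MJ2 against RANKL alone (95% interval 0.15 to 1.77, adjusted p = 0.16) and 0.57 between the treatments (95% interval -0.01 to 1.16, adjusted p = 0.15).

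Dusp10, which encodes MKP-5, reached 0, 2.22 and 4.94 adjusted reads with RANKL alone, 7.16, 3.85 and 10.8 with heat-killed MJ2, and 4.88, 7.68 and 19.4 with surface proteins. The highest values were in treated libraries, but each treated group overlapped with the control. Dusp8, a phosphatase best known from brain, reached 3.71, 5.40 and 0 with RANKL alone, 3.08, 18.5 and 4.90 with heat-killed MJ2, and 0.959, 11.6 and 4.43 with surface proteins. Its groups all overlapped, and the second library of each group was the highest of its group. Both genes were under 10 adjusted reads in most libraries, so no test and no fold change were made.

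**Figure D3:**
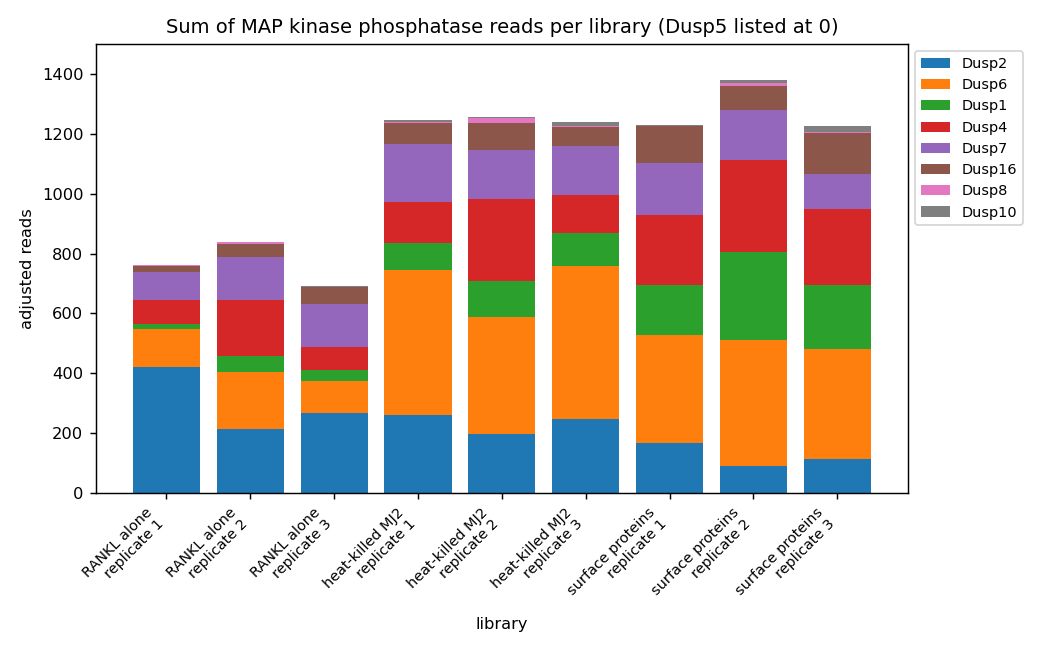
Adjusted reads of the MAP kinase phosphatase genes stacked in each of the 9 libraries (vertical axis, sum of adjusted reads; horizontal axis, library). The sums were 692 to 839 with RANKL alone, 1238 to 1257 with heat-killed MJ2 and 1225 to 1379 with surface proteins, and the Dusp2 segment is shortest in the surface protein libraries.

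Summed over the 9 genes, the adjusted reads were 765 ± 73.6 with RANKL alone, 1247 ± 9.35 with heat-killed MJ2 and 1278 ± 87.2 with surface proteins (SD, n = 3). The 2 treated groups overlapped, and both lay above the control libraries. The make-up of the sums also differed between the treated groups. With RANKL alone Dusp2 made up 39.7% of the sum on average (25.3% to 55.1% over the libraries), Dusp6 18.2% and Dusp1 4.73%. With heat-killed MJ2 Dusp6 led with 37.0%, followed by Dusp2 with 18.9%, and Dusp1 held 8.63%. With surface proteins Dusp6 led with 30.1%, followed by Dusp4 with 20.7% and Dusp1 with 17.4%, while Dusp2 held 9.71% (6.47% to 13.5%). The shares of Dusp1 did not overlap between any groups, with 2.57% to 6.18% in the control, 7.22% to 9.62% with heat-killed MJ2 and 13.5% to 21.1% with surface proteins. Dusp7 held 16.7%, 14.0% and 12.0% in the same order, and Dusp16 held 5.27%, 5.94% and 8.91%. The shares within a library sum to the whole, so a higher share of 1 gene lowers the others.

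The genes whose log2 values followed each phosphatase most closely over the 9 libraries were found among 11193 rows and are given as a description. All points share their libraries and the levels of the same 3 groups. Closest to Dusp1 were Etv1, an ETS transcription factor that answers to ERK (Pearson's r = 0.991), Osgin2 (0.989) and Zfp36, an mRNA decay factor for cytokine transcripts (0.986). Closest to Dusp2 were Fasn, the fatty acid synthase (0.978), Cradd (0.978) and Sumo3 (0.972). Dusp6 was followed by Cd300lf (0.977), Tmsb10 (0.975) and Cd14, the co-receptor for lipopolysaccharide (0.975). Cd14 had the same order of groups as Dusp6, with mean log2 values of 9.15, 12.25 and 11.52 for RANKL alone, heat-killed MJ2 and surface proteins. Dusp4 was followed by Soat1 (0.975), Eaf1 (0.969) and Cacna1a (0.968), Dusp16 by Acsbg1 (0.961), Chrm4 (0.959) and Srp54b (0.957), and Dusp7 by Slmo2 (0.987), 0610009B22Rik (0.967) and 2010111I01Rik (0.933). Within the family, Dusp1 followed Dusp16 (0.880), Dusp4 (0.857) and Dusp6 (0.820) and ran against Dusp2 (-0.899).

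**Figure D4:**
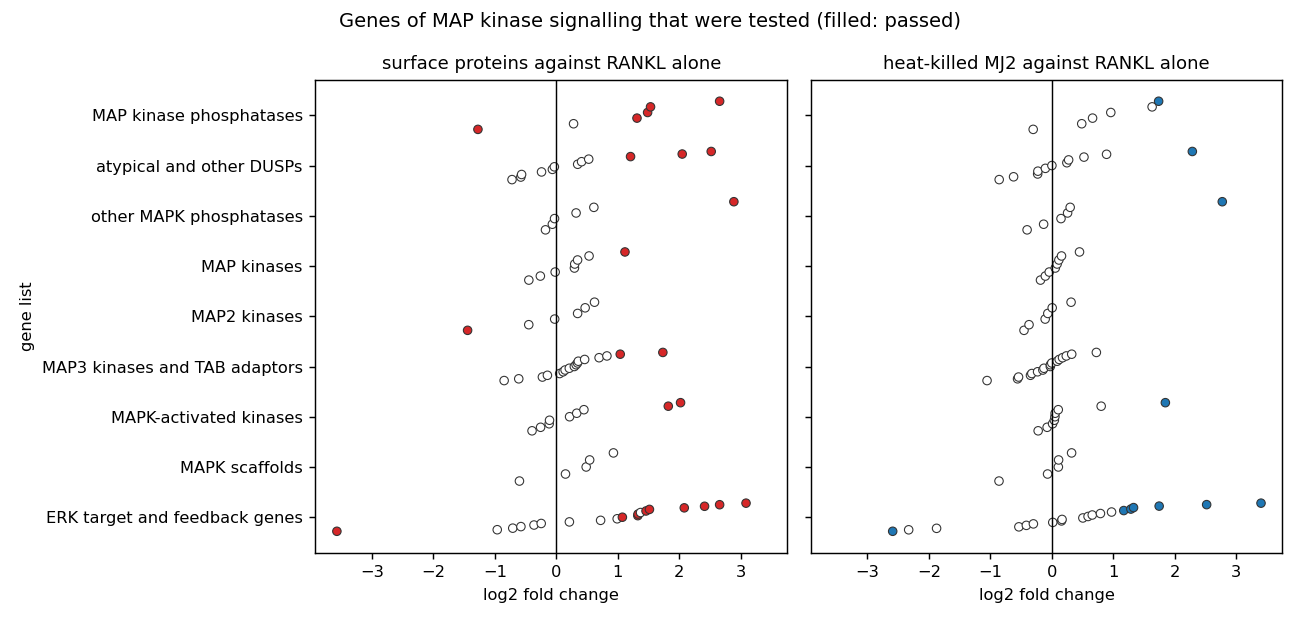
Log2 fold change (horizontal axis) of each tested gene in the MAP kinase phosphatases and 8 further lists of MAP kinase signalling (vertical axis), for surface proteins and for heat-killed MJ2 against RANKL alone; filled points passed. The phosphatases and the ERK target and feedback genes hold most of the filled points, and the MAP kinases and MAP2 kinases hold 1 filled point each with surface proteins and none with heat-killed MJ2.

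Genes of the kinases that these phosphatases act on, and of those above and below them, are given beside the shares of all genes tested that passed, 17.5% with surface proteins and 4.26% with heat-killed MJ2, and the counts as a whole lay near or below these shares. Of 8 MAP kinase genes tested, only Mapk7, which encodes ERK5, rose with surface proteins (log2 fold change 1.12, adjusted p = 0.016, limma), and none passed with heat-killed MJ2 (1 had an unadjusted p under 0.05). Of 6 MAP2 kinases, Map2k3, an activator of p38, fell by 1.44 on the log2 scale with surface proteins (adjusted p = 0.0040), from 1732 to 2197 adjusted reads in the control libraries to 591 to 870 in the surface protein libraries. With heat-killed MJ2 none of the 6 passed, and 1 had an unadjusted p under 0.05. Of 17 MAP3 kinases and TAB adaptors, 2 rose with surface proteins, Map3k5, the stress-activated kinase ASK1 (1.73, adjusted p = 0.0021), and Map3k2 (1.04, adjusted p = 0.023). None of the 17 passed with heat-killed MJ2, where 2 had an unadjusted p under 0.05. Of these, Map3k5 met the p threshold (0.73, adjusted p = 0.026, limma) but was under the fold limit. Of 9 kinases activated by MAP kinases, Mknk1, which phosphorylates the cap-binding factor eIF4E, rose by 2.02 (adjusted p = 0.0011) and Rps6ka2, an RSK kinase, by 1.82 (adjusted p = 0.011) with surface proteins. Rps6ka2 was the one of the 9 that passed with heat-killed MJ2, where it rose (1.85, adjusted p = 0.023). Mknk1 met the p threshold there (0.80, adjusted p = 0.038, limma) but was under the fold limit. Of 5 scaffold genes none passed in either comparison, with 4 and 1 at an unadjusted p under 0.05.

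Other phosphatases were taken as 2 lists. Of 12 atypical and other dual-specificity phosphatases tested, 3 rose with surface proteins: Dusp23 (log2 fold change 2.52, adjusted p = 0.039, limma), Ssh2 (2.05, adjusted p = 0.0013) and Ssh3 (1.21, adjusted p = 0.026). Among all genes tested 10.2% rose in this comparison, and the median over the 12 was 0.158. Ssh2 and Ssh3 are slingshot phosphatases of the actin regulator cofilin, not of MAP kinases. Dusp23 was at most 4.93 adjusted reads in the control libraries and 12.5 to 28.5 with surface proteins, so its fold change rests on few reads. It met the filter only through the surface protein libraries, the group where it is high. Of 11 tested with heat-killed MJ2, where 3.37% of all genes rose, Dusp14 did so (2.29, adjusted p = 0.041), from 3.34 to 11.2 adjusted reads in the control libraries to 27.1 to 52.1. Dusp9, the remaining MAP kinase phosphatase gene, was below the filter with at most 12.8 adjusted reads. Of 6 MAP kinase phosphatases from other families tested, the tyrosine phosphatase gene Ptpn5 passed. It rose with surface proteins (2.89, adjusted p = 0.011) and with heat-killed MJ2 (2.78, adjusted p = 0.040). Its adjusted reads were 1.18 to 8.36 in the control libraries, 24.5 to 43.7 with surface proteins and 23.2 to 40.9 with heat-killed MJ2. Ptpn5 met the filter only through the treated libraries, so both calls rest on the groups where it is high.

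Genes known as targets or feedback regulators of ERK were read next. Of 19 tested with surface proteins, 9 rose and 1 fell, with a median log2 fold change of 1.08 against -0.00767 over all genes tested, of which 10.2% rose and 7.32% fell. The greatest rises were those of Phlda1 (3.09, adjusted p = 5.2e-04, limma), Spred3 (2.66, adjusted p = 0.021) and Plaur, the urokinase receptor (2.41, adjusted p = 0.0026). Spred3 held 2.72 to 18.4 adjusted reads in the control libraries and 36.2 to 57.8 with surface proteins. Egr2, an early-response transcription factor, fell by 3.57 on the log2 scale (adjusted p = 0.021), from 100.4 to 161 adjusted reads in the control libraries to 1.93 to 23.2. Of 20 tested with heat-killed MJ2, 6 rose and 1 fell, with a median of 0.549, while 4.26% of all genes tested passed. Phlda1 (3.41, adjusted p = 0.0013), Plaur (2.52, adjusted p = 0.0096) and Etv4 (1.75, adjusted p = 0.031) led there, and Egr2 fell by 2.59 (adjusted p = 0.025). Etv4 held 4.61 to 6.55 adjusted reads in the control libraries and 14.5 to 32.4 with heat-killed MJ2. With surface proteins, where it is among the genes that rose, it held 10.8 to 26.2. It met the filter only through the treated libraries, so both calls rest on the groups where it is high. Between the treatments 3 of 19 passed, against 10.1% of all genes tested, and all were higher with surface proteins: Spred3 (1.69, adjusted p = 0.0086), Egr1 (1.17, adjusted p = 0.016) and Etv5 (1.06, adjusted p = 0.038). Both comparisons with RANKL alone share the 3 control libraries, so their values are set side by side and their likeness was not tested.

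Between the treatments, 10.1% of all genes tested passed, and the counts in the other lists, ERK targets aside, lay as a whole near or below that share. Of the 12 atypical and other dual-specificity phosphatases, Dusp23 (log2 fold change 2.30, adjusted p = 0.028, limma) and Ssh2 (1.16, adjusted p = 0.017) were higher with surface proteins. Of the 17 MAP3 kinases and adaptors, the same held for Tab3 (1.17, adjusted p = 0.019) and Map3k5 (1.01, adjusted p = 0.020) and, of the 9 kinases activated by MAP kinases, for Mknk1 (1.22, adjusted p = 0.013). Dusp23 held 0.962 to 5.13 adjusted reads with heat-killed MJ2 and 12.5 to 28.5 with surface proteins. It met the filter only through the surface protein libraries, so this call rests on the group where it is high. None of the 8 MAP kinases, 6 MAP2 kinases, 5 scaffolds or 6 phosphatases from other families passed both limits, with 3, 3, 1 and 0 at an unadjusted p under 0.05 (limma). Of these, Map2k3 met the p threshold (log2 fold change -0.99, adjusted p = 0.024, limma) but was under the fold limit.

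The 9 genes lie on 9 different chromosomes of mm10 by GENCODE M21, and no other annotated gene lies in the last 500 bases of any of them, near which reads of the 3′ end fall. Those whose levels carry the results are Dusp1 (chr17:26505590-26562128, minus strand), Dusp2 (chr2:127336159-127338376, plus strand), Dusp4 (chr8:34807297-34819894, plus strand), Dusp6 (chr10:99263231-99267489, plus strand) and Dusp16 (chr6:134715468-134792625, minus strand). The GENCODE spans of Dusp1, Dusp8 and Dusp10 reach beyond the RefSeq starts used for the promoter windows, so these windows lie inside the annotated genes, and the span of Dusp5 begins within its window.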

How the data were processed

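RNA of 9 RAW264.7 libraries, 3 per group, was sequenced by the authors with a 3′ mRNA kit as 75 bp single-end reads. For each library the authors deposited 1 log2 value for each of 23282 gene rows, and the methods name quantile normalization between samples, although sorted libraries differed by up to 1.6 (log2) at the same rank. The submitters' processing notes name Bowtie2, bedtools and mm10, and the counter, annotation and strand setting are not given in the sources used here. Groups were taken from the sample titles, and no batch is labelled.

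Adjusted reads were 2 to the deposited value, minus 1. Of low values (0.5 to 3.5 adjusted reads), 73.1% to 100% per library lay within 0.25 of a whole number. The deposited values are log2 values rather than raw counts, so no count test was used. Replicates were compared by chi-square per degree of freedom, which was 7.39 to 21.5 within groups, and no libraries were identical, so all counted as separate samples.

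Rows were tested where 3 or more of the 6 libraries compared held 10 adjusted reads or more, with limma 3.58.1 (lmFit and eBayes, R 4.3.3) on the deposited values, with Benjamini-Hochberg adjustment over all rows tested. Fold changes are on the log2(value + 1) scale, which understates those of low genes. The test was checked on simulated data. Tables and plots were made with Python 3.11.15, pandas 2.3.3, numpy 2.4.6 and matplotlib 3.10.9. The phosphatases and the lists were chosen with earlier results of these data known. All phosphatases are named, as are up to 3 called genes at each end of each pathway list (marker lists are given by counts) and, for likeness, the 3 genes of highest r. Alternatives were another scaling, filter, constant before the log, fit, threshold, a replicate block and leaving out each library.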

Additional observations from a re-analysis of the deposited data

How the results depend on the processing

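No log2 fold change of a phosphatase gene changed sign under any alternative. Of their alternative values, 233 stayed on the same side of the thresholds, 28 fell below them and 9 passed them newly. With surface proteins against RANKL alone, 5 phosphatase genes were called, 2 with no filter on low values (Dusp1 and Dusp6) and 2 to 4 with 1 library left out. All genes called there numbered 1901, 3163 with no limit on the fold change and 1490 to 1876 with 1 library left out. With heat-killed MJ2 against RANKL alone, the 1 call (Dusp6) became 0 with no filter and with the replicate block. It became 2 (Dusp1 and Dusp6) with equal totals, with 10 adjusted reads in every library, with a constant of 2, in the fit over all 9 libraries, in the robust fit and at an unadjusted p under 0.05, and 0 to 2 with 1 library left out. All genes called there numbered 461, 267 with no filter, 289 with the replicate block, 799 at an unadjusted p under 0.05 and 189 to 334 with 1 library left out. Between the treatments, the 1 call (Dusp1) became 0 with no filter and in the fit over all 9 libraries, 2 (Dusp1 and Dusp2) with no limit on the fold change, and 0 to 2 with 1 library left out. With equal totals it stayed at 1, with Dusp2 in place of Dusp1. All genes called there numbered 1098, 1949 with no limit on the fold change and 342 to 1167 with 1 library left out. Fewer libraries leave fewer degrees of freedom, and the cause of the other shifts was not tested. Replicate numbers are shared by the groups, but nothing in the labels pairs the libraries: deviations of same-numbered libraries correlated at 0.0179 to 0.106 and others at -0.0755 to 0.0311. Every library correlated best with its own number, a hint from the data only. Under the replicate block, 1813 genes and 5 phosphatases were called with surface proteins against RANKL alone, Dusp6 with heat-killed MJ2 had an adjusted p of 0.077, and 980 genes with Dusp1 were called between the treatments. Dusp8 and Dusp10 reached 10 adjusted reads in too few libraries to be tested under the main filter, and Dusp5 was listed at 0.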
